A study of Drosophila melanogaster with 12 samples.

Results

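Transcripts of 10 Drosophila melanogaster genes of the heat shock response were followed in ovaries of 4 su(Hw) genotypes: the chaperone genes Hsp22, Hsp23, Hsp26, Hsp27, Hsp68, Hsp83 and Hsc70-4, the co-chaperone genes DnaJ-1 and stv, and the stress-induced gene TotC. The genes were matched to probe sets by the symbol in the array annotation. A probe set assigned to 1 gene was found for 7 of the 10, and all 7 passed the filter on low signal, among 9147 genes tested from 18952 probe sets. Hsp22 was covered by 2 probe sets that the annotation also assigns to CG4456, the neighbouring gene formerly named Hsp67Bb. The annotation used here assigns no probe set to Hsp23 or Hsp83, which were not analysed here.

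Su(Hw) is a zinc finger protein that binds chromatin insulators and is needed for oogenesis. There were 3 arrays for each genotype. The mutant groups were the fertile f/v (su(Hw)f/su(Hw)v), the sterile 2/v (su(Hw)2/su(Hw)v) and the sterile Pb/2 (su(Hw)Pb/su(Hw)2). The wild type was Canton S, an ordinary laboratory strain. All females were virgins of 4 to 6 h after eclosion raised at 25 °C without a heat shock named in the labels, and their egg chambers had developed no further than stage 8 in any genotype, before the apoptosis at stage 9 that the series' design describes for mutants. The allele v is shared by f/v and 2/v, and the allele 2 by 2/v and Pb/2, so no allele is carried by all 3 mutants. The labels do not describe the lesions and do not say that the mutants share the Canton S background. The source names call the material embryos, whereas the tissue label and the protocol say ovary.

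Heat shock proteins are molecular chaperones that bind unfolded proteins, and many are induced by the transcription factor Hsf when cells are stressed. HSP70 proteins work in cycles of ATP hydrolysis, which J-domain proteins such as DnaJ-1 stimulate and which BAG-domain proteins such as the stv product reset. Small heat shock proteins form oligomers that hold unfolded clients, and in Drosophila several of them are made in the developing ovary without any heat shock. TotC belongs to the Turandot family of secreted peptides, which the fat body makes under stress with input from the JAK/STAT pathway.

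Each array carried RNA pooled from about 150 pairs of ovaries, of which 50 ng was amplified, so the p-values rest on how far pools of ovaries differed, part of which may be technical. In these bulk samples, fewer cells of a type and less RNA per cell cannot be told apart. Signals below are deposited array intensities after quantile normalization. Background was set by 27 bacterial control probe sets, whose 95th percentile lay at 66.5 on that scale. In the values as deposited it lay at 62.0, and 57.8 to 63.6% of the probe sets of an array exceeded that level. Arrays of the same genotype correlated at 0.985 to 0.991 and arrays of different genotypes at 0.949 to 0.980. The su(Hw) transcript itself read 2913, 2708 and 2591 in f/v, 85.1, 129 and 81.4 in 2/v, 85.8, 153 and 212 in Pb/2, and 3865, 3562 and 3999 in wild type. It was low in all 6 arrays of the genotypes labelled sterile, and differed from wild type by -5.08 ± 0.25 in 2/v and by -4.60 ± 0.25 in Pb/2 on the log2 scale. The 18 probe sets of the hybridization controls BioB, BioC, BioDn and Cre are called the added controls below. They read 1.22 times their wild type level in f/v, 1.39 times in 2/v and 1.45 times in Pb/2. Results were therefore also computed after scaling to those controls. Whether they gauge the amount of RNA in a sample was not tested.

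The small heat shock gene Hsp26 was well above background in every genotype and was lower in both sterile genotypes. Its signal was 15017, 15689 and 14751 in the f/v arrays, 12010, 11512 and 10795 in the 2/v arrays, 8404, 7419 and 8709 in the Pb/2 arrays, and 16077, 14794 and 15636 in the wild type arrays. The 6 arrays of the sterile genotypes all lay below the 6 of the fertile ones, and the Pb/2 arrays all lay below the 2/v arrays. Differences are log2 fold changes of signal + 16 with the standard error of a limma fit over all 12 arrays, which understates changes of dim probe sets, and adjusted p (Benjamini and Hochberg over the 9147 genes) was called below 0.05. Against wild type Hsp26 fell by 0.92 ± 0.08 in Pb/2 (adjusted p = 7e-06) and by 0.44 ± 0.08 in 2/v (adjusted p = 0.0011). In 2/v that call ended, with a value of 0.01, when the array median was subtracted in place of quantile normalization. Against f/v it fell by 0.89 ± 0.08 in Pb/2 (adjusted p = 2.1e-05) and by 0.41 ± 0.08 in 2/v (adjusted p = 0.0032), and the 2/v call ended with the array median subtracted (-0.28, adjusted p = 0.15). Levels in f/v and wild type overlapped (-0.03, 95% interval -0.20 to 0.14).

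Hsp27, a second small heat shock gene of the same cluster on chromosome arm 3L, passed the test in no pair of genotypes. Its signal ranged from 9510 to 11408 in f/v, 10349 to 11199 in 2/v, 10340 to 11261 in Pb/2 and 11010 to 12556 in wild type. All 4 ranges overlap. The differences from wild type were -0.16 in f/v and -0.13 in both 2/v and Pb/2, and the 95% intervals of all 6 comparisons together spanned -0.35 to 0.21. Scaling to the added controls called Hsp27 lower than wild type in all 3 mutants, while median subtraction gave positive values that did not pass the test. Within an array, where any single scaling factor cancels, the log2 ratio of the deposited Hsp26 over Hsp27 signals averaged 0.51 in f/v, 0.09 in 2/v, -0.41 in Pb/2 and 0.34 in wild type. The 3 ratios ranged from 0.47 to 0.60 in f/v, 0.0011 to 0.22 in 2/v, -0.54 to -0.29 in Pb/2 and 0.26 to 0.39 in wild type, so the groups did not overlap. The ratio shows unequal change of the 2 genes, not which of them changed.

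The 2 probe sets assigned to both Hsp22, a mitochondrial small heat shock protein gene, and CG4456 gave different patterns. The brighter set read 5499, 6321 and 4822 in f/v, 3334, 3625 and 3835 in 2/v, 2481, 2383 and 3150 in Pb/2, and 8385, 6659 and 7536 in wild type. Every array of the sterile genotypes lay below every array of the fertile ones. In a fit of all 12700 probe sets kept, this set was lower than wild type by -1.06 ± 0.14 in 2/v (adjusted p = 0.00023) and by -1.49 ± 0.14 in Pb/2 (adjusted p = 2.4e-05). Its f/v value of -0.44 ± 0.14 (adjusted p = 0.036) lost the call under 4 alternatives and without f/v replicate 1, f/v replicate 3, wild type replicate 1 or wild type replicate 3 (adjusted p = 0.079 to 0.12).

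The dimmer set read 1180, 1252 and 1147 in f/v, 1738, 1686 and 1390 in 2/v, 865, 1185 and 969 in Pb/2, and 864, 966 and 997 in wild type. It was highest in 2/v, whose arrays lay above all others. It was higher than wild type by 0.75 ± 0.12 in 2/v (adjusted p = 0.001), a call that ended on scaling to the added controls (0.10, adjusted p = 0.48). The values against wild type in f/v (0.34) and Pb/2 (0.08) did not pass the test, and both turned negative on that scaling, where Pb/2 was called lower (-0.59, adjusted p = 0.0017). With the array median subtracted f/v was called higher (0.37, adjusted p = 0.041). The adjusted p of f/v was as low as 0.035 under the alternatives and 0.037 without 1 array. The annotation does not say which of the transcripts each set reads, so no direction is given for Hsp22.

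The remaining genes of this cluster were mostly out of reach. In the gene order of the Release 6 plus ISO1 MT assembly, Hsp67Bc, CG4456, Hsp22, CG4461, Hsp26, Hsp67Ba, Hsp23 and Hsp27 follow each other on 3L. Of these, Hsp67Ba, Hsp67Bc and Hsp23 have no probe set here, and CG4461 read at most 47.5, below background on all arrays. A small heat shock gene outside that cluster, l(2)efl (lethal (2) essential for life), differed from wild type in all 3 mutants. Its signal was 1748, 1767 and 1880 in f/v, 1973, 1885 and 1985 in 2/v, 2402, 2304 and 1908 in Pb/2, and 4415, 4456 and 5170 in wild type. It fell against wild type in f/v (-1.37), 2/v (-1.25) and Pb/2 (-1.08), with the largest adjusted p of the 3 at 1.2e-05, and passed the test in no comparison among the mutants. It was the 1 of 8 other small heat shock genes that could be tested, and CG7409 and CG13133 lay above background on 1 array each.

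**Figure D1:**
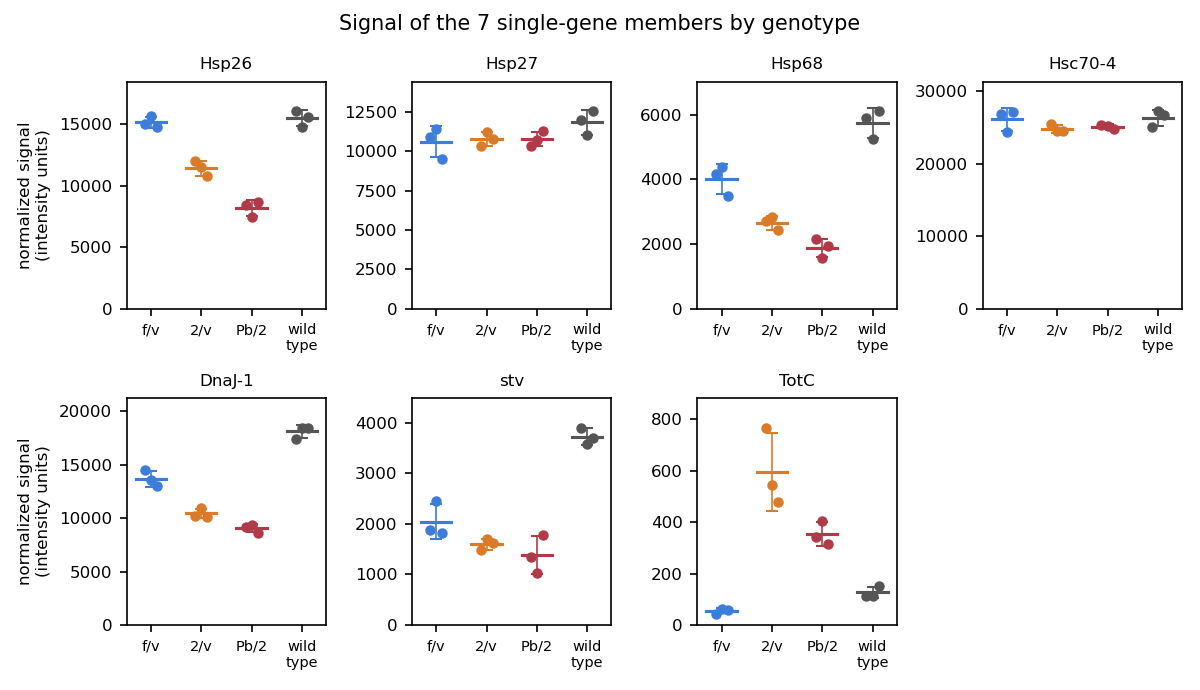
Normalized signal (intensity units, linear axes from 0) of the 7 members with a single-gene probe set in f/v, 2/v, Pb/2 and wild type ovaries. Points are the 3 arrays of a genotype, horizontal lines their means and bars the SD. The means of Hsp26, Hsp68, DnaJ-1 and stv are lower in 2/v than in f/v and lowest in Pb/2, and all 4 are highest in wild type, though for Hsp26 the f/v and wild type arrays overlap. Hsp27 and Hsc70-4 overlap between genotypes, and TotC is highest in 2/v.

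Among the HSP70 genes, the inducible Hsp68 was lower in all 3 mutants, in steps. It read 4161, 4394 and 3484 in f/v, 2696, 2842 and 2417 in 2/v, 2142, 1574 and 1922 in Pb/2, and 5897, 5236 and 6115 in wild type. No 2 genotypes overlapped. Against wild type it fell by 1.61 ± 0.13 in Pb/2 (adjusted p = 5.5e-06), by 1.11 ± 0.13 in 2/v (adjusted p = 7.3e-05) and by 0.52 ± 0.13 in f/v (adjusted p = 0.01). The f/v call ended with the array median subtracted (-0.31, adjusted p = 0.15). Against f/v it fell by 1.09 ± 0.13 in Pb/2 and by 0.59 ± 0.13 in 2/v (adjusted p = 2e-04 and 0.0071). Pb/2 was lower than 2/v by -0.50 ± 0.13 (adjusted p = 0.023), but without 2/v replicate 1, 2/v replicate 2 or Pb/2 replicate 2 that call ended (highest adjusted p = 0.073), as it did with the added controls (-0.56, adjusted p = 0.062) and in a fit of the arrays of both groups alone (adjusted p = 0.065).

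The constitutive Hsc70-4, the main cytosolic HSP70 cognate of unstressed cells, passed the test in no pair of genotypes. Its signal was 24321 to 27102 in f/v, 24517 to 25451 in 2/v, 24745 to 25346 in Pb/2 and 25124 to 27249 in wild type. The 4 ranges overlap. The 6 differences lay between -0.08 and 0.02, with 95% intervals spanning -0.23 to 0.16. Its direction depended on the scaling: against wild type it was called higher with the array median subtracted in f/v (0.34), 2/v (0.51) and Pb/2 (0.42), called higher in 2/v in the values as deposited (0.23) and called lower in Pb/2 on scaling to the added controls (-0.34). The log2 ratio of deposited Hsp68 over Hsc70-4 signals within an array, free of any single scaling factor, averaged -2.67 in f/v, -3.37 in 2/v, -3.84 in Pb/2 and -2.02 in wild type. The ratios ranged from -2.86 to -2.44 in f/v, -3.47 to -3.25 in 2/v, -4.06 to -3.49 in Pb/2 and -2.21 to -1.91 in wild type, again without overlap.

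The stress-inducible Hsp70 genes are near-identical copies at neighbouring loci, and their probe sets are each assigned to several of them, so single copies are uncertain. The set for Hsp70Aa and Hsp70Ab read 14837, 15486 and 15458 in f/v, 10977, 11417 and 11146 in 2/v, 6403, 6594 and 7117 in Pb/2, and 17592, 16466 and 16359 in wild type. Both sterile genotypes lay below both fertile ones, and Pb/2 below 2/v. The brighter set for Hsp70Ba, Hsp70Bb, Hsp70Bbb and Hsp70Bc read 8330, 9298 and 8568 in f/v, 3726, 3479 and 3865 in 2/v, 2461, 2557 and 2913 in Pb/2, and 10006, 10023 and 9365 in wild type. The order of the genotypes was the same. Against wild type the Hsp70A set fell by 0.59 ± 0.06 in 2/v and by 1.32 ± 0.06 in Pb/2 (adjusted p = 7.3e-05 and 2.4e-07). The call of the Hsp70A set in 2/v ended with the array median subtracted (-0.13). The Hsp70B set fell by 1.41 ± 0.08 in 2/v and by 1.89 ± 0.08 in Pb/2 (adjusted p = 9.3e-07 and 1.1e-07). In f/v neither passed the test (-0.14 and -0.17), and median subtraction turned both values positive, also without a call.

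The other Hsp70B probe sets were dimmer in the sterile genotypes than in f/v, with a spread of patterns against wild type. The set for Hsp70Bb and Hsp70Bc averaged 3756 ± 287 in f/v, 1572 ± 27.4 in 2/v, 1095 ± 146 in Pb/2 and 3830 ± 355 in wild type (SD, n = 3 each). It was lower than wild type in 2/v (-1.27) and Pb/2 (-1.80), and its f/v value of -0.03 did not pass the test. A set assigned also to CG31343 averaged 307 ± 36.8 in f/v, 164 ± 35.0 in 2/v, 162 ± 20.1 in Pb/2 and 658 ± 57.8 in wild type. That one was already lower in f/v (-1.06, adjusted p = 0.00055). The dim second set for the 4 Hsp70B genes read 150 to 210 in f/v, 83.9 to 115 in 2/v, 71.6 to 94.4 in Pb/2 and 89.2 to 147 in wild type. Its f/v value of 0.62 (adjusted p = 0.028) lost the call on 2 scalings and without f/v replicate 2, f/v replicate 3, wild type replicate 1 or wild type replicate 3, and its sterile genotypes did not pass the test against wild type. With the added controls this dim set was called lower than wild type in 2/v (-0.95, adjusted p = 0.002) and Pb/2 (-1.14, adjusted p = 0.00075), and in Pb/2 also as deposited (-0.61, adjusted p = 0.037). In all, 5 probe sets carried Hsp70 genes, of which 1 was called lower than wild type in f/v and 4 in 2/v, with 4 in Pb/2. Of all probe sets tested, 14.6% were called lower in f/v and 19.9% in 2/v, with 13.3% in Pb/2. The Hsp70B sets are all assigned to Hsp70Bb and Hsp70Bc, so the 5 sets are not independent readings.

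**Figure D2:**
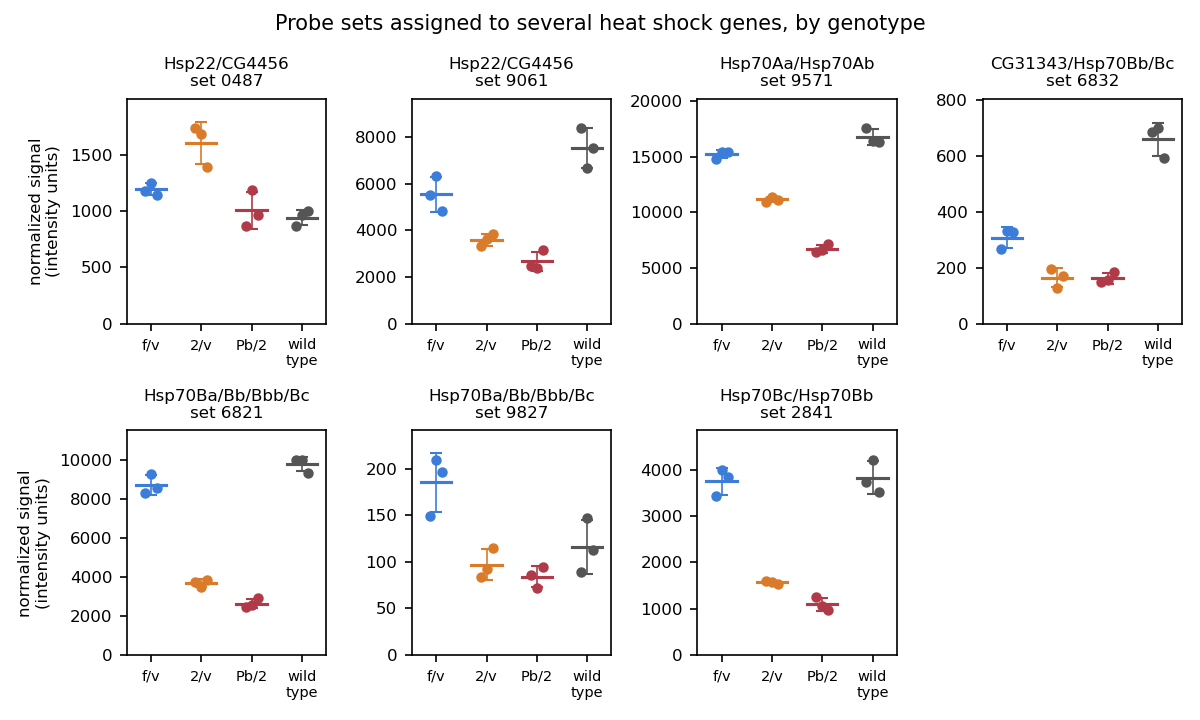
Normalized signal (intensity units, linear axes from 0) of the probe sets that the annotation assigns to several genes, for Hsp22 with CG4456 and for the Hsp70 genes, in f/v, 2/v, Pb/2 and wild type. Each panel title gives the genes and the end of the probe set's number, points are arrays, lines means and bars the SD of 3 arrays. The Hsp70A set and the brighter Hsp70B sets are lower in 2/v and lowest in Pb/2, and the 2 Hsp22 sets differ in pattern.

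The co-chaperone genes fell in all 3 mutants. DnaJ-1, a J-domain partner of HSP70, read 14528, 13539 and 13003 in f/v, 10225, 10977 and 10120 in 2/v, 9175, 9402 and 8618 in Pb/2, and 17430, 18446 and 18480 in wild type. No 2 genotypes overlapped. Against wild type it fell by 1.00 ± 0.07 in Pb/2 (adjusted p = 1.8e-06), by 0.79 ± 0.07 in 2/v (adjusted p = 9e-06) and by 0.40 ± 0.07 in f/v (adjusted p = 0.0011). The f/v call ended with the array median subtracted (-0.07, adjusted p = 0.55). It was also lower than in f/v in Pb/2 (-0.59 ± 0.07, adjusted p = 0.00017) and in 2/v (-0.39 ± 0.07, adjusted p = 0.002), and the sterile pair did not pass the test (-0.20, 95% interval -0.35 to -0.05, adjusted p = 0.06), which 3 alternatives called (adjusted p = 0.014 to 0.047).

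The gene stv (starvin), a BAG-domain co-chaperone known for its role in muscle, showed its main step between wild type and the mutants. It read 1871, 2442 and 1814 in f/v, 1481, 1693 and 1628 in 2/v, 1339, 1036 and 1776 in Pb/2, and 3901, 3580 and 3692 in wild type. All mutant arrays lay below all wild type arrays, while 2/v and Pb/2 overlapped. Against wild type it fell by 1.45 ± 0.18 in Pb/2 (adjusted p = 0.00011), by 1.21 ± 0.18 in 2/v (adjusted p = 0.00033) and by 0.87 ± 0.18 in f/v (adjusted p = 0.0033). Among the mutants, 2/v did not pass the test against f/v (-0.34, adjusted p = 0.18), though it was called lower with the added controls (-0.57, adjusted p = 0.042), nor did Pb/2 against 2/v (-0.24, adjusted p = 0.36). Pb/2 was called lower than f/v (-0.58 ± 0.18, adjusted p = 0.042), a call that ended on leaving out any 1 of 11 of the 12 arrays, with adjusted p up to 0.14.

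Set against Hsc70-4 within each array, the means of both co-chaperone ratios moved in the same order. The log2 ratio of DnaJ-1 over Hsc70-4 averaged -0.89 in f/v, -1.33 in 2/v, -1.53 in Pb/2 and -0.48 in wild type. The ratio of stv over Hsc70-4 averaged -3.66 in f/v, -4.12 in 2/v, -4.28 in Pb/2 and -2.59 in wild type. The sterile genotypes overlapped in both ratios. DnaJ-1 ratios ranged from -1.43 to -1.24 in 2/v and -1.69 to -1.42 in Pb/2. Those of stv ranged from -4.37 to -3.99 in 2/v and -4.64 to -4.05 in Pb/2. For both ratios the wild type arrays lay above all mutant arrays, which no single scaling factor per array can alter.

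TotC moved opposite to Hsp26, Hsp68, DnaJ-1 and stv in the sterile genotypes. It read 43.8, 61.9 and 59.3 in f/v, all not above background, 767, 543 and 476 in 2/v, 342, 403 and 315 in Pb/2, and 114, 114 and 152 in wild type. The 4 genotypes did not overlap, with 2/v highest, then Pb/2, wild type and f/v. Against wild type TotC rose by 2.08 ± 0.18 in 2/v (adjusted p = 1.1e-05) and by 1.38 ± 0.18 in Pb/2 (adjusted p = 0.00022), and it was at least 1.89-fold lower in f/v (adjusted p = 0.0019). Bounds set against an f/v level below background use the higher of background and the f/v signal. By that bound TotC was at least 8.77-fold higher in 2/v than in f/v (adjusted p = 1.4e-06) and at least 5.29-fold higher in Pb/2 than in f/v (adjusted p = 9.2e-06). These 5 calls and their directions held under all 13 alternatives and without any 1 array. Pb/2 was lower than 2/v (-0.71 ± 0.18, adjusted p = 0.025), and without 2/v replicate 1, Pb/2 replicate 1 or Pb/2 replicate 3 that call ended (highest adjusted p = 0.074), as it did in a fit of the arrays of both groups alone (adjusted p = 0.068) and with the replicate number as a block (adjusted p = 0.055).

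No other Turandot gene was available for comparison. TotA, TotC, TotB and TotZ follow each other on 3R in the Release 6 plus ISO1 MT gene order. TotB and TotZ read at most 31.7 and 33.3, below background on all arrays, TotF lay above it on 2 arrays, and TotA, TotM and TotX have no probe set here. Of 8 JAK/STAT pathway genes tested, upd1, which encodes a ligand of the pathway, was the 1 called against wild type. It read 1012, 947 and 919 in f/v, 850, 802 and 709 in 2/v, 841, 706 and 892 in Pb/2, and 1087, 1067 and 1279 in wild type. It was lower in both 2/v (-0.53, adjusted p = 0.0027) and Pb/2 (-0.49, adjusted p = 0.0062), where TotC was higher. In f/v its value of -0.25 (adjusted p = 0.11) was called lower as deposited and with the added controls. Over all genes, 16.8% were called lower and 18.2% higher for f/v. The shares were 22.3% and 24.0% for 2/v, and 15.6% and 15.8% for Pb/2. The pathway count moved with the scaling. With the added controls, 6 of the 8 were called lower for 2/v, 7 for Pb/2 and 2 for f/v. Median subtraction called 1 higher for f/v, and 1 higher beside upd1 in each sterile genotype. Without 2/v replicate 2, 1 was likewise called higher in each sterile genotype.

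Counted together, 4 of the 7 single-gene members were lower and none higher in f/v against wild type, where 16.8% of all genes tested were called lower and 18.2% higher. In 2/v against wild type 4 were lower and 1 higher (all genes 22.3% lower and 24.0% higher), and in Pb/2 again 4 lower and 1 higher (all genes 15.6% and 15.8%). The members' median log2 fold change was -0.40 in f/v and -0.44 in 2/v, with -0.92 in Pb/2, against medians over all genes of 0.02, 0.01 and 0.00. The 4 lower members were Hsp68, DnaJ-1, stv and TotC in f/v, and Hsp26, Hsp68, DnaJ-1 and stv in both sterile genotypes. The members and the gene lists were chosen with earlier results of these data known. Their counts and medians beside those of all genes, here and elsewhere, are therefore descriptions and not tests.

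Against f/v, 3 members were lower and 1 higher in 2/v (all genes 13.5% and 13.7%), and 4 were lower and 1 higher in Pb/2 (all genes 10.5% and 9.98%). Between the sterile genotypes 3 members were lower and none higher in Pb/2 than in 2/v (all genes 11.1% lower and 9.22% higher), namely Hsp26, Hsp68 and TotC. That last count was 1, Hsp26, without 2/v replicate 1. Arrays of the compared genotypes did not overlap for 4 members in f/v against wild type (49.6% of all genes), 5 in 2/v (56.9%) and 5 in Pb/2 (45.4%). Against f/v they did not overlap for 5 members in 2/v (43.8%) and 5 in Pb/2 (37.8%), and between Pb/2 and 2/v for 4 (38.7%). These comparisons share arrays and are not independent of each other. By level, Hsp68 ran from wild type through f/v and 2/v to Pb/2 with each step called. Its step from 2/v to Pb/2 lost the call in several of the checks given above. DnaJ-1 had the same order with its last step not called, and for stv only the step from wild type to f/v was called between neighbours. For Hsp68 and DnaJ-1 the step from wild type to f/v was not called with the array median subtracted. Hsp26 did not pass the test between wild type and f/v, and both later steps were called, that between f/v and 2/v not with the array median subtracted.

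**Figure D3:**
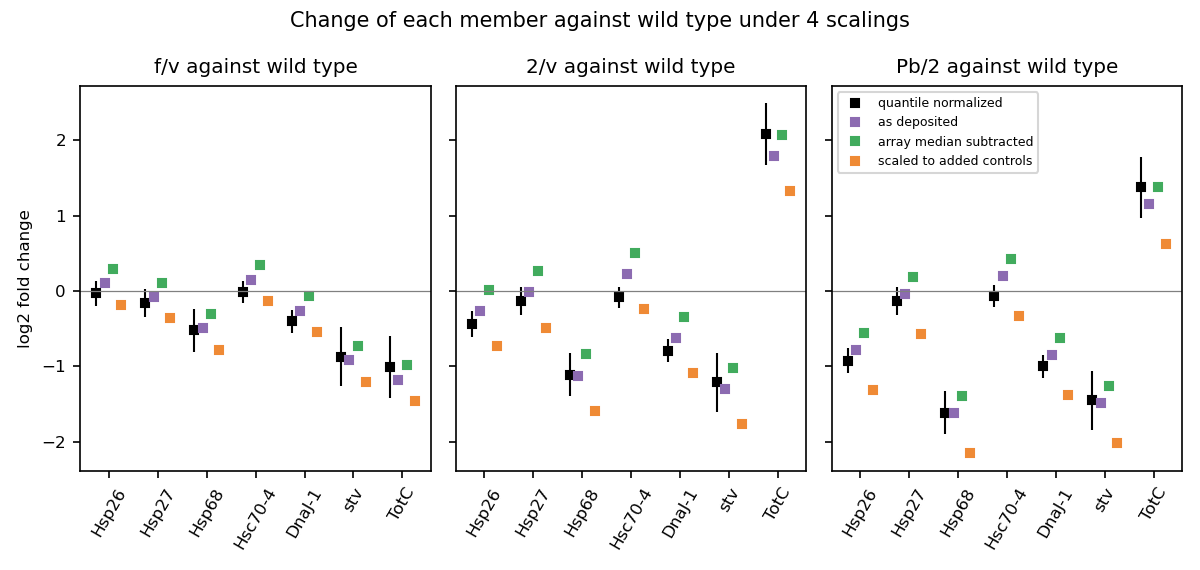
Log2 fold change against wild type of the 7 single-gene members in f/v, 2/v and Pb/2 under 4 scalings of the arrays. Squares are fold changes from 3 arrays per genotype, and bars are 95% intervals of the quantile normalized values. Hsp68, DnaJ-1 and stv lie below 0 and TotC above 0 in both sterile genotypes under each scaling, whereas Hsp27 and Hsc70-4 change sign, as does Hsp26 in f/v and 2/v.

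The scaling moved all genes together. Median subtraction placed the median gene, against wild type, at 0.15 in f/v and 0.20 in 2/v, with 0.17 in Pb/2, and the added controls placed it at -0.32, -0.55 and -0.59. Calls over all genes were 1665 higher and 1541 lower in f/v, 2196 and 2041 in 2/v, and 1442 and 1425 in Pb/2. Median subtraction gave 2293 higher and 1152 lower in f/v, 3353 and 1352 in 2/v, and 2461 and 1085 in Pb/2. The added controls gave 408 higher and 3342 lower in f/v, 394 and 5543 in 2/v, and 362 and 6675 in Pb/2. Values as deposited gave 1339 higher and 1903 lower in f/v, 1926 and 2641 in 2/v, and 1272 and 1888 in Pb/2. Under all 3 of these scalings Hsp68, DnaJ-1 and stv were called lower and TotC higher than wild type in both sterile genotypes.

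Other chaperone families were counted against wild type. Of all genes tested, 16.8% were called lower and 18.2% higher in f/v, 22.3% and 24.0% in 2/v, and 15.6% and 15.8% in Pb/2. The same shares stand beside the counts of regulators and of cell type markers further below. Of 5 further HSP70 family genes tested (Hsc70-1, Hsc70-2, Hsc70-3, Hsc70-5 and Hsp110), none was called against wild type in f/v or Pb/2 and 4 were lower in 2/v. With the added controls 2 were called lower in f/v and 5 in Pb/2. That count of 4 was 2 without wild type replicate 1 or wild type replicate 2, and the 5 values in 2/v lay between -0.51 and -0.16. Of 8 HSP90 family and co-chaperone genes, 1 was higher in f/v and 2 in 2/v, with 1 in Pb/2, and none lower. The count of 2 in 2/v was 0 without 2/v replicate 2 or wild type replicate 2 and 1 without 2/v replicate 3, wild type replicate 3, f/v replicate 1 or Pb/2 replicate 1. In both sterile genotypes that list turned with the scaling, with 6 higher in 2/v and 7 in Pb/2 after median subtraction, and 5 lower in 2/v and 6 in Pb/2 after scaling to the added controls. Median subtraction gave 5 higher in f/v. Of 7 other J-domain genes, 1 was lower in f/v and 2 in 2/v, with 2 in Pb/2, and all 7 were lower in both sterile genotypes with the added controls. On that scaling 5543 of all 9147 genes were called lower in 2/v and 6675 in Pb/2. The J-domain counts were 0 to 1 in f/v and 1 to 2 in Pb/2 when 1 array was left out. DnaJ-60, also on that list, had only probe sets shared with CG42568, and which gene each reads is uncertain. Sets averaging 5824 and 2877 in wild type were called higher in 2/v (0.38 and 0.47, adjusted p = 0.0011 and 0.0038). A dimmer set, averaging 470 in wild type, was called lower in f/v (-0.63, adjusted p = 0.019). None of these sets was called in Pb/2 against wild type. Of 12 chaperonin genes, which encode the ring-shaped folding chambers, 1 was higher and 1 lower in f/v, 2 higher and 1 lower in 2/v, and 1 lower in Pb/2. The lower one in each was the mitochondrial chaperonin gene Hsp60A (-0.19, -0.25 and -0.33), whose values turned positive without a call after median subtraction. Its f/v call also ended without f/v replicate 1, f/v replicate 3, wild type replicate 1 or wild type replicate 2 (adjusted p = 0.053 to 0.079). The 2 chaperonin calls in f/v came to between 0 and 2 without 1 array, and the 3 in 2/v were 1 without 2/v replicate 2, 2/v replicate 3 or wild type replicate 1. The chaperonin list also turned with the scaling. Median subtraction called 9 of the 12 higher in 2/v and 7 in Pb/2, with 7 in f/v, and none lower. The added controls called 10 lower in Pb/2 and 5 in 2/v, with 1 in f/v, and none higher.

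Of 4 genes tested from a list of regulators of the response, which also holds crp, 1 was higher and 1 lower in 2/v, 1 higher and 1 lower in Pb/2, and none was called in f/v against wild type. Hsf, the heat shock transcription factor gene, read 5648, 6053 and 6329 in f/v, 5295, 5584 and 5378 in 2/v, 4985, 4947 and 5094 in Pb/2, and 5943, 5912 and 6113 in wild type. The Pb/2 arrays lay below all others. Hsf was lower than wild type in Pb/2 (-0.26, adjusted p = 0.0082), a call that ended after median subtraction (-0.02), and it was not called in f/v (0.0036) or 2/v (-0.14, adjusted p = 0.074). Of the other 3 genes tested in that list, crp, which encodes a basic helix-loop-helix factor not known to act on heat shock genes, was higher in 2/v and Pb/2 (0.61 in both), calls that ended with the added controls. Nup98-96, a nucleoporin gene, was lower in 2/v (-0.55, adjusted p = 0.0026), a call that ended after median subtraction (-0.33, adjusted p = 0.061).

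Markers of tissues other than the egg chamber differed between the mutants and wild type on the same arrays. The summed signal of 9 gut genes was 2020 to 2346 in f/v, 1591 to 1869 in 2/v, 1292 to 1458 in Pb/2 and 12614 to 14175 in wild type. That of 11 muscle genes was 35979 to 38069 in f/v, 33167 to 36583 in 2/v, 36471 to 36781 in Pb/2 and 67685 to 70472 in wild type. Of the 9 gut genes 8 were lower in f/v and 8 in 2/v, with 9 in Pb/2, and of 10 muscle genes tested 9 were lower in each mutant, with fln below background on all arrays. The part of gut and muscle tissue in the falls of stv, l(2)efl, Hsp68 and DnaJ-1 against wild type was not tested.

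The summed signals of fat body and hemocyte markers were also lower in the mutants. The 5 fat body genes summed to 4443 to 4862 in f/v, 3342 to 3545 in 2/v, 3600 to 3688 in Pb/2 and 7324 to 7607 in wild type, and 9 hemocyte genes to 13159 to 15153 in f/v, 10502 to 10906 in 2/v, 11565 to 12195 in Pb/2 and 20816 to 21915 in wild type. Against wild type 3 of 5 fat body genes were lower in f/v and 4 in 2/v, with 3 in Pb/2, and none higher. Of the 9 hemocyte genes 3 were lower and 1 higher in f/v, 7 lower and 2 higher in 2/v, and 5 lower and 1 higher in Pb/2. The part of fat body and hemocytes in the values of TotC was not tested.

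Germline and follicle cell markers, the cells the ovary label implies, were all above background in every genotype. The germline sum was 88800 to 95302 in f/v, 78256 to 78654 in 2/v, 82005 to 88085 in Pb/2 and 81611 to 92845 in wild type. The follicle cell sum was 76691 to 77039 in f/v, 87807 to 89894 in 2/v, 90275 to 93681 in Pb/2 and 84126 to 86924 in wild type. Of 12 germline genes none was lower and 2 higher in f/v against wild type, 7 lower and 2 higher in 2/v, and 4 lower and 1 higher in Pb/2. Of 11 follicle cell genes 7 were lower and 2 higher in f/v, 5 lower and 3 higher in 2/v, and 6 lower and 3 higher in Pb/2, so more were called lower than higher in the sterile genotypes, where the sum was higher. The part of cell composition in the values of Hsp26 and the Hsp70 sets was not tested.

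**Figure D4:**
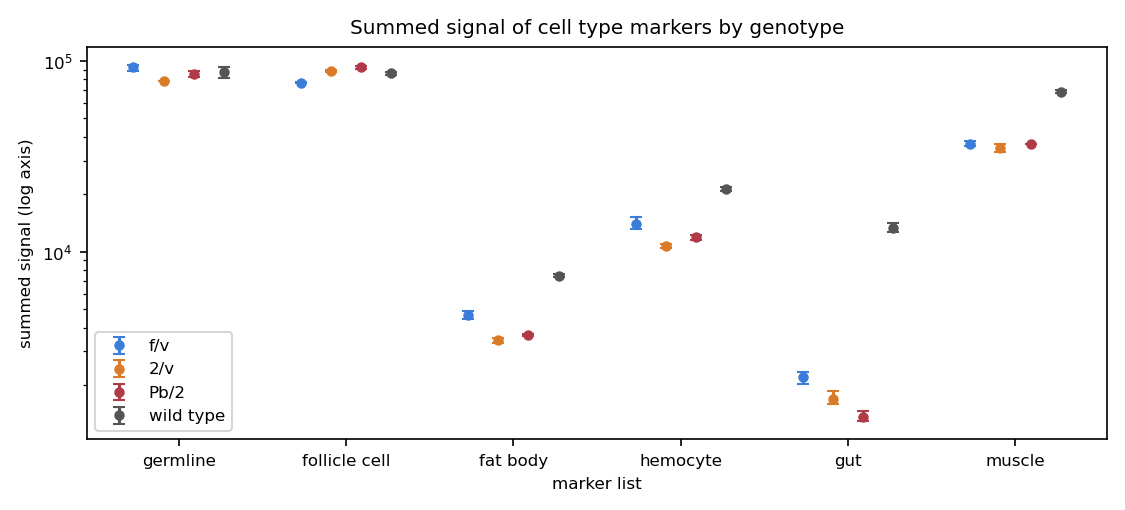
Summed normalized signal (log axis) of marker genes of 6 cell types in f/v, 2/v, Pb/2 and wild type ovaries. Points are means of 3 arrays and bars run from the lowest to the highest array. Gut, muscle, fat body and hemocyte sums are lower in all 3 mutants than in wild type, and germline and follicle cell sums differ less.

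The genes whose pattern lay closest to each member were found by the root mean square difference of log2 values over the 12 arrays, each gene centred on its mean. Closest to Hsp26 was Mnn1, a menin gene, at 0.08, with mean signals of 659 in f/v, 538 in 2/v, 377 in Pb/2 and 751 in wild type, followed by Obp99c at 0.11. For Hsp68 they were the maltase gene Mal-A2 at 0.16, which is also among the gut markers, and the adhesion gene rst at 0.18. For DnaJ-1 they were CG5390 at 0.10 and Idgf1, a secreted growth factor gene, at 0.10. For stv they were CG8907 and CG14629 at 0.17 each. Nearest to TotC were CG4619 at 0.33 and CG32032 at 0.36, and CG4619 averaged 437 in f/v, 2447 in 2/v, 1859 in Pb/2 and 635 in wild type. Hsp27 (roh and g) and Hsc70-4 (RpL39 and par-6) lay closest to genes that also varied little, at 0.03 to 0.06. Between members, DnaJ-1 and Hsp26 were the most alike of the falling genes at 0.19, and Hsp68 and stv followed at 0.24. This measure favours genes of small variation, and all genes share the 12 arrays.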

How the data were processed

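The deposited intensities of 12 Affymetrix Drosophila Genome 2.0 arrays were linear values that the authors made with GCOS, per the submitters' processing notes (version not given in the sources used here). On the values themselves each array has a trimmed mean of 1500, leaving out 2% at each end. From these, log2(signal + 16) was computed and, because array medians differed by up to 0.40, quantile normalized. A probe set stayed in if 3 or more arrays read it over their own 40th percentile (12700 did). Where a gene had several probe sets of its own, the one of highest mean was taken, giving 9147 genes. There were 183 control probe sets, 402 with several genes and 4720 with no symbol, which stayed out of the gene tests. Group means over all 12 arrays were fitted with limma 3.58.1 (lmFit, eBayes, 8 residual degrees of freedom) in R 4.3.3, and adjusted p below 0.05 was called. Python 3.11.15 with matplotlib 3.10.9 drew the figures. Probe sets shared by several genes were tested in a fit of every probe set.

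The number of arrays limits the precision. Arrays with the same replicate number were not paired: 18 pairs correlated at -0.15 to 0.0996 after removal of group means, none above 0.1. On data simulated for 2/v against wild type, 200 of 9147 genes were changed in each of 5 runs. The method recovered 39.6% of changes of 0.5, 83.2% of 1, 95.6% of 2 and 99.2% of 3 on the log2 scale, and 5.02% of calls were false. The simulated noise was normal, independent between genes and without scaling differences between arrays, so these rates leave out errors of scaling. Fewer genes were changed than the 2196 called higher and 2041 called lower in the data.

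The members and lists were chosen with earlier results of these data known. The rule for named genes was all members with every probe set, su(Hw), and called list genes with the largest change (at most 4 a list), with the 2 nearest genes to each member, and some of the list genes it allows are given only as counts. The alternatives for shared probe sets, other named genes and lists, and the ratios within arrays, were added after seeing the data. Gene order came from the gene table of the Release 6 plus ISO1 MT assembly by name, and no sequences were used here.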

Additional observations from a re-analysis of the deposited data

How the results depend on the processing

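Over the 7 members and 6 comparisons, 501 values kept direction and side of the threshold under other settings, 12 lost the call, 8 gained it and 25 changed sign. With 1 array left out, 479 kept both, 17 lost the call and 8 changed sign. The count of members called was 4 in f/v against wild type, 5 in 2/v and 5 in Pb/2 without any 1 array, 4 in 2/v against f/v, 4 to 5 in Pb/2 against f/v, and 1 to 3 in Pb/2 against 2/v, where it was also 1 with only the arrays of the groups compared. The replicate block gave 4, 5, 5, 4, 4 and 2 members called in the 6 comparisons in the same order, since stv in Pb/2 against f/v (adjusted p = 0.078) and TotC in Pb/2 against 2/v (adjusted p = 0.055) lost their calls, and it ended no other call of a member.

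Sign changes came mostly from the scaling. As deposited, f/v against wild type read 0.10 for Hsp26 and 0.15 for Hsc70-4. Hsc70-4 read 0.23 in 2/v and 0.20 in Pb/2 against wild type, 0.076 in 2/v and 0.043 in Pb/2 against f/v, and -0.033 in Pb/2 against 2/v, where Hsp27 read -0.019. With the array median subtracted, Hsp26 read 0.29 in f/v and 0.014 in 2/v against wild type. Hsp27 then read 0.11 in f/v and 0.26 in 2/v, with 0.19 in Pb/2 against wild type and -0.073 in Pb/2 against 2/v. Hsc70-4 read 0.34 in f/v and 0.51 in 2/v, with 0.42 in Pb/2 against wild type, 0.17 in 2/v and 0.082 in Pb/2 against f/v, and -0.088 in Pb/2 against 2/v. Scaled to the added controls, Hsp27 read -0.13 in 2/v and -0.21 in Pb/2 against f/v and -0.081 in Pb/2 against 2/v, and Hsc70-4 read -0.095 in Pb/2 against 2/v. With array weights Hsp27 read -0.040 in Pb/2 against 2/v. With 1 array left out, sign changes fell on Hsc70-4 in f/v against wild type (-0.048 to 0.036) and on Hsp27 in 2/v against f/v (-0.052 to 0.080), Pb/2 against f/v (-0.051 to 0.081) and Pb/2 against 2/v (-0.032 to 0.030), none of which is called.

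Of the shared sets, with the median subtracted the brighter Hsp70B set read 0.10, the Hsp70Bb and Hsp70Bc set 0.14 and the Hsp70A set 0.20 in f/v against wild type, and the Hsp70A set read 0.0065 as deposited. The CG31343 set in Pb/2 against 2/v read 0.078 as deposited, 0.023 with the median subtracted, 0.015 with the added controls and 0.000486 with a pseudocount of 1. The dimmer Hsp22 set against wild type read -0.11 in f/v and -0.59 in Pb/2 with the added controls, and -0.059 in Pb/2 as deposited. Without 1 array, the CG31343 set in Pb/2 against 2/v read -0.16 to 0.13, the dimmer Hsp22 set in Pb/2 against wild type -0.039 to 0.19, and the Hsp70Bb and Hsp70Bc set in f/v against wild type -0.084 to 0.046. Against wild type, the added controls gave -0.26 for Hsf and -0.21 for crp in f/v. Median subtraction gave 0.16 for Hsf in 2/v, 0.11 for Nup98-96 in f/v, and 0.14, 0.23 and 0.042 for Hsp60A in f/v, 2/v and Pb/2. Without 1 array, Hsf in f/v read -0.034 to 0.047. Causes were not tested. Signals near background limit TotC in f/v.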
